A study of Homo sapiens with 6 samples.

Results

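The genes described here are 10 that encode enzymes, or subunits of enzymes, downstream of the mevalonate pathway. Their products make a prenyl donor, prenylate proteins, process prenylated proteins or build dolichol. They are GGPS1, FNTA, FNTB, PGGT1B, RABGGTA, RABGGTB, RCE1, ICMT, DHDDS and NUS1. They were taken by name from a table of read counts with 26485 gene symbols. All 10 were found under their current symbols, and all 10 were among the 14018 genes with enough counts to be tested. The cells were PC-9, a line from a human lung adenocarcinoma that carries a mutant, growth-driving EGFR. One group carried a stable short hairpin RNA against IFITM3 (shIFITM3, 3 samples), an interferon-induced membrane protein of the endosome, and the other a control construct (shControl, 3 samples), which the sample titles call a control hairpin and the column names ShEV. No drug or other agent is named for either group, and the sources used here do not state how many hairpins were used or whether the cells were a pool or a clone. The 3 samples of a group are biological replicates per the labels, which do not say whether they came from separate cultures. Each p-value therefore sets a group difference against the variation between these samples, whatever its source.

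Prenylation joins an isoprenoid lipid to a cysteine near the end of a protein, which lets small GTPases such as RAS and RAB proteins sit in membranes. Farnesyl diphosphate, made by FDPS, is the branch point: FDFT1 draws it towards cholesterol, GGPS1 lengthens it to geranylgeranyl diphosphate, and DHDDS with NUS1 lengthens it to the polyprenyl chain that becomes dolichol, the lipid carrier of N-glycans. Farnesyltransferase is built from FNTA and FNTB, geranylgeranyl transferase I from FNTA and PGGT1B, and geranylgeranyl transferase II, which prenylates RAB proteins, from RABGGTA and RABGGTB. RCE1 then cuts off the last residues of a prenylated CAAX protein, and ICMT methylates the exposed cysteine.

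The 250 bases upstream of the RefSeq start (GRCh38.p14, 5' to 3' on the gene's strand) are given for the 2 members that fell in shIFITM3 cells, for the member with the largest fitted rise, and, for comparison, for FDPS. They are PGGT1B (chr5:115262878-115263127, minus strand), RCE1 (chr11:66843191-66843440, plus strand), DHDDS (chr1:26432071-26432320, plus strand) and FDPS (chr1:155308616-155308865, plus strand). Capitals mark matches on either strand to CCAAT, the core bound by NF-Y, or to GGGCGG, the core bound by Sp1. The classical sterol regulatory element and its shorter core TCACNCCAC were searched too.
PGGT1B: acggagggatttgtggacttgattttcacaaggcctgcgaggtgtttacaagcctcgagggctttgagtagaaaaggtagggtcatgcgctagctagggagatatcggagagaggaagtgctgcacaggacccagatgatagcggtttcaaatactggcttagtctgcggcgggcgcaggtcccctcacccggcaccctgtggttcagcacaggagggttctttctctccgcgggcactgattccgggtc
RCE1: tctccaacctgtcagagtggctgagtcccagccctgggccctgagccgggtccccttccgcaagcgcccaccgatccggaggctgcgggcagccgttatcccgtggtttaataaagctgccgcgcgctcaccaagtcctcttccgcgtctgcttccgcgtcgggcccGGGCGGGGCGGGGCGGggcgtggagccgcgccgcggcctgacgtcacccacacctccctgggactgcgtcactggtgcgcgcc
DHDDS: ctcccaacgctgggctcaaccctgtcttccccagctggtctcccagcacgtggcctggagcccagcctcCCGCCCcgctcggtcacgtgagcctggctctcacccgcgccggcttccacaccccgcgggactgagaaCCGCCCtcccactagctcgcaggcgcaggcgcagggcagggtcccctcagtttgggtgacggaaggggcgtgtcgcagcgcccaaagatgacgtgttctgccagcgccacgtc
FDPS: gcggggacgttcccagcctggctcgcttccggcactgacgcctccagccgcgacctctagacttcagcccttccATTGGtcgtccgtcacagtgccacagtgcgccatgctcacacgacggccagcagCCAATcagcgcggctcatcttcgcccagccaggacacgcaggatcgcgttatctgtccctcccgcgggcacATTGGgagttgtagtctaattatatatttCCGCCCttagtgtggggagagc
PGGT1B held none of these motifs in this stretch, RCE1 held overlapping copies of GGGCGG, DHDDS held GGGCGG at 2 places on the other strand, and FDPS held CCAAT at 3 places and GGGCGG at 1 place on the other strand. Windows of 250 bases before to 50 bases after the start were listed for 9 of the 10 members (12 windows, since a gene can have several starts) and for FDPS, MVK, PMVK, MVD and IDI1 among the enzymes that supply farnesyl diphosphate (7 windows). CCAAT occurred in 3 of the 12 member windows (FNTB, GGPS1 and NUS1) and in 5 of the 7 supply windows, against 34.6% of all 35116 windows. GGGCGG occurred in 7 of the 12 member windows and in 7 of the 7 supply windows, against 45% of all windows. The classical sterol regulatory element and TCACNCCAC, which 0.0456% and 1.13% of all windows held, had a match in 0 of the member and 0 of the supply windows.

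IFITM3 itself was lower in the cells with the hairpin against it, at 10.4, 12.9 and 9.75 CPM (counts scaled to TMM-adjusted library size) in shIFITM3 replicates 1, 2 and 3, against 57.0, 60.5 and 62.8 CPM in shControl replicates 1, 2 and 3. Total counts were between 21965506 and 23852371 in shIFITM3 samples and between 21342028 and 77228760 in shControl samples, the deepest being shControl replicate 2. Across tested genes, log2 CPM correlated at 0.992 to 0.995 within a group and at 0.971 to 0.975 between groups, a description across genes, which are not independent. The epithelial markers EPCAM, CDH1, KRT7, KRT8, KRT18, KRT19 and EGFR, 7 of 7 tested, summed to between 8810 and 9033 CPM in shIFITM3 samples and between 9897 and 10020 CPM in shControl samples. The members differed in log2 fold change: EGFR (0.74) and EPCAM (0.09) rose, while CDH1 (-0.60), KRT8 (-0.50) and KRT18 (-0.29) fell and KRT7 and KRT19 did not pass. Of 8 markers of leukocytes, endothelium and fibroblasts, 3 were high enough to be tested (CD68, PECAM1 and COL1A1). The sum of these 8 was between 84.2 and 92.5 CPM in shIFITM3 samples and between 75.2 and 82.6 CPM in shControl samples, most of it CD68. CD68 (0.20) and COL1A1 (0.29) rose, while PECAM1 fell, at 0.842 ± 0.0905 CPM in shIFITM3 and 2.69 ± 0.36 CPM in shControl (SD, n = 3 each, log2 fold change -1.66, edgeR adjusted p = 1.21e-05). PTPRC, CD3E, VWF, COL1A2 and PDGFRB averaged at most 0.321 CPM in either group. The part of these marker differences in the results was not tested.

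The 10 genes did not move as a block. In shIFITM3 cells 5 rose (GGPS1, FNTA, RABGGTA, RABGGTB and DHDDS), 2 fell (PGGT1B and RCE1), and FNTB, ICMT and NUS1 did not pass the test. The changes were small, from a log2 fold change of -0.62 for PGGT1B to 0.36 for DHDDS. Their median was 0.12, against -6.33e-05 over all tested genes. The median absolute log2 fold change over all tested genes was 0.25, so small changes were usual in this comparison. A gene is said to rise or fall here where the edgeR quasi-likelihood test, adjusted over all tested genes by Benjamini-Hochberg, gave p under 0.05. By that rule 27.7% of all tested genes rose, 28.4% fell and 56.1% passed in either direction, so 7 of 10 members is not far from the background. Without shControl replicate 2, the deepest library, 3 members rose. In a test against a change of 1.5-fold (edgeR glmTreat), which 7.95% of tested genes passed (5.76% higher and 2.2% lower), 0 of the 10 members passed, and 0 had an unadjusted p under 0.05. For 5 members the groups had no overlap in CPM (FNTA, PGGT1B, RABGGTB, RCE1 and DHDDS), against 60.9% of all tested genes. In these bulk samples fewer cells expressing a gene and less RNA per cell cannot be told apart. Only RNA was measured, so protein levels, the make-up of the enzyme complexes and enzyme activity were not tested.

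**Figure D1:**
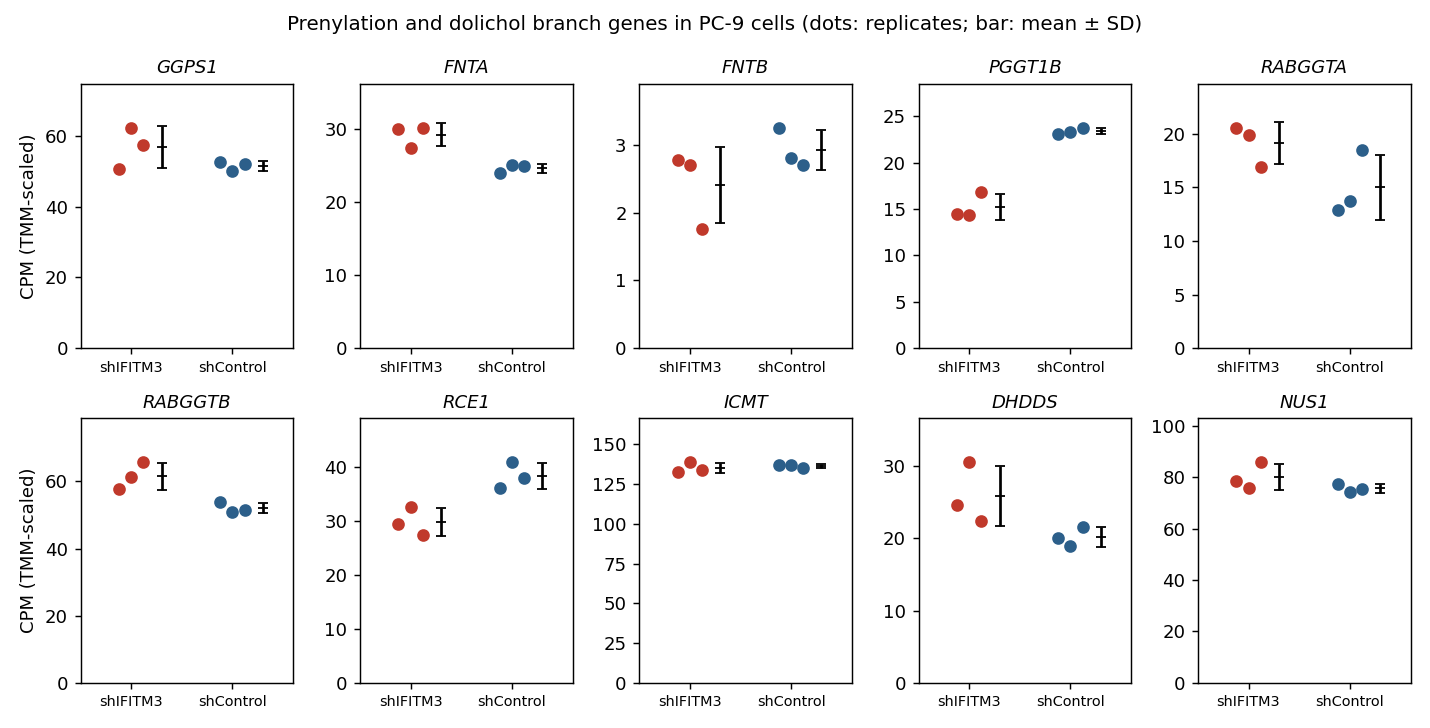
TMM-scaled CPM of the 10 members (vertical axes from 0, one panel per gene) in the 3 shIFITM3 samples (left, red) and the 3 shControl samples (right, blue), with the mean and SD beside each group. PGGT1B and RCE1 lie lower in all 3 shIFITM3 samples, while FNTA, RABGGTB and DHDDS lie higher.

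The prenyl donor is made by GGPS1 (chromosome 1, 235327216 to 235344532, plus strand; coordinates here and for the other genes are those of GRCh38.p14). It was at 50.5, 62.3 and 57.5 CPM in shIFITM3 replicates 1, 2 and 3, against 52.5, 49.9 and 51.9 CPM in shControl replicates 1, 2 and 3. One shIFITM3 sample lay inside the shControl range and the other two lay above it. The log2 fold change was 0.15 (SE 0.0608, edgeR adjusted p = 0.0447), just under the threshold. The call ended without shIFITM3 replicate 2 (0.07, edgeR adjusted p = 0.318), shIFITM3 replicate 3 (0.14, 0.113), shControl replicate 2 (0.12, 0.156) or shControl replicate 3 (0.15, 0.0776), and the value was 0.22 without shIFITM3 replicate 1. In the exons of GENCODE release 29, 37.3% of GGPS1 exon bases also belong to TBCE on the same strand, so reads there may have been shared with TBCE or left out.

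Transcripts of FDPS, which makes the substrate of GGPS1, and of FDFT1, which competes for it, stood far higher in shIFITM3 cells. FDPS (chromosome 1, 155308866 to 155320665) averaged 291 ± 3.21 CPM in shIFITM3 and 113 ± 5.38 CPM in shControl (SD, n = 3 each), and its log2 fold change was 1.37 (SE 0.0376, edgeR adjusted p = 3.16e-19). The squalene synthase gene FDFT1 had a log2 fold change of 1.84, and of the 7 listed genes of the mevalonate pathway up to and at this branch point 6 rose, with a median of 1.73. FDPS shares 18.6% of its exon bases with the antisense gene RUSC1-AS1, and the sources used here do not state whether the counting used strand.

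Transcripts of the CAAX prenyltransferase subunits changed in different directions. FNTA (chromosome 8, 43056323 to 43085785), the alpha subunit shared by farnesyltransferase and geranylgeranyl transferase I, was at 30.1, 27.4 and 30.2 CPM in shIFITM3 replicates 1, 2 and 3, against 23.9, 25.1 and 25.0 CPM in shControl replicates 1, 2 and 3. All 3 shIFITM3 samples lay above all 3 shControl samples. The log2 fold change was 0.24 (SE 0.0684, edgeR adjusted p = 0.00416).

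PGGT1B (chromosome 5, 115204012 to 115262877, minus strand), the beta subunit that gives geranylgeranyl transferase I its lipid choice, had the largest change of the 10. It was at 14.4, 14.4 and 16.8 CPM in shIFITM3 replicates 1, 2 and 3 (from 317, 330 and 401 counts), against 23.1, 23.3 and 23.8 CPM in shControl replicates 1, 2 and 3 (from 490, 1797 and 651 counts). The groups were well apart, and the shControl samples were close to each other. The fitted level in shIFITM3 was 0.649 times that in shControl, which is -0.62 on the log2 scale (SE 0.0832, edgeR adjusted p = 8.19e-07). This placed PGGT1B at the 5.36th percentile of log2 fold changes over all tested genes. The value lay between -0.70 and -0.58 under all 16 alternative settings tried, and it passed the threshold in all 16.

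FNTB (chromosome 14, 64986895 to 65062650), the beta subunit of farnesyltransferase, had 61, 62 and 42 counts in shIFITM3 replicates 1, 2 and 3, against 69, 216 and 74 counts in shControl replicates 1, 2 and 3. That is 2.77, 2.70 and 1.76 CPM in shIFITM3, against 3.25, 2.81 and 2.70 CPM in shControl, and the ranges overlapped. The log2 fold change of -0.27 had an SE of 0.218 (edgeR adjusted p = 0.306), and the value was -0.08 without shIFITM3 replicate 3 and -0.38 without shIFITM3 replicate 1. The estimate does not exclude a fall of the size seen in PGGT1B. FNTB shares 42.1% of its exon bases with the readthrough gene CHURC1-FNTB on the same strand, and that row of the table is at 0 in all 6 samples. The FNTB counts may therefore leave out reads from the shared exons.

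The balance between the subunit transcripts was followed as a ratio of CPM within each sample. It was not corrected for length, so that only its difference between groups is read. The ratio is one of RNA, and the subunit proteins were not measured. The FNTA to PGGT1B ratio was 2.09, 1.91 and 1.80 in shIFITM3 replicates 1, 2 and 3, against 1.04, 1.07 and 1.05 in shControl replicates 1, 2 and 3. The groups did not overlap, and the log2 ratio was higher by 0.87 in shIFITM3. An exact permutation test over the 6 samples gave p = 0.1 (two-sided, 0.2 adjusted over the 6 ratios compared), which is the smallest p that 3 against 3 samples allow. The FNTA to FNTB ratio was higher by 0.55 on the log2 scale (exact permutation p = 0.1, adjusted 0.2), without overlap, but rests on the low FNTB counts and was higher by 0.31 without shIFITM3 replicate 3. The FNTB to PGGT1B ratio overlapped between groups, with a log2 difference of 0.33 (exact permutation p = 0.4, adjusted 0.48). That difference was 0.17 without shIFITM3 replicate 1, 0.19 without shIFITM3 replicate 2 and 0.61 without shIFITM3 replicate 3.

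**Figure D2:**
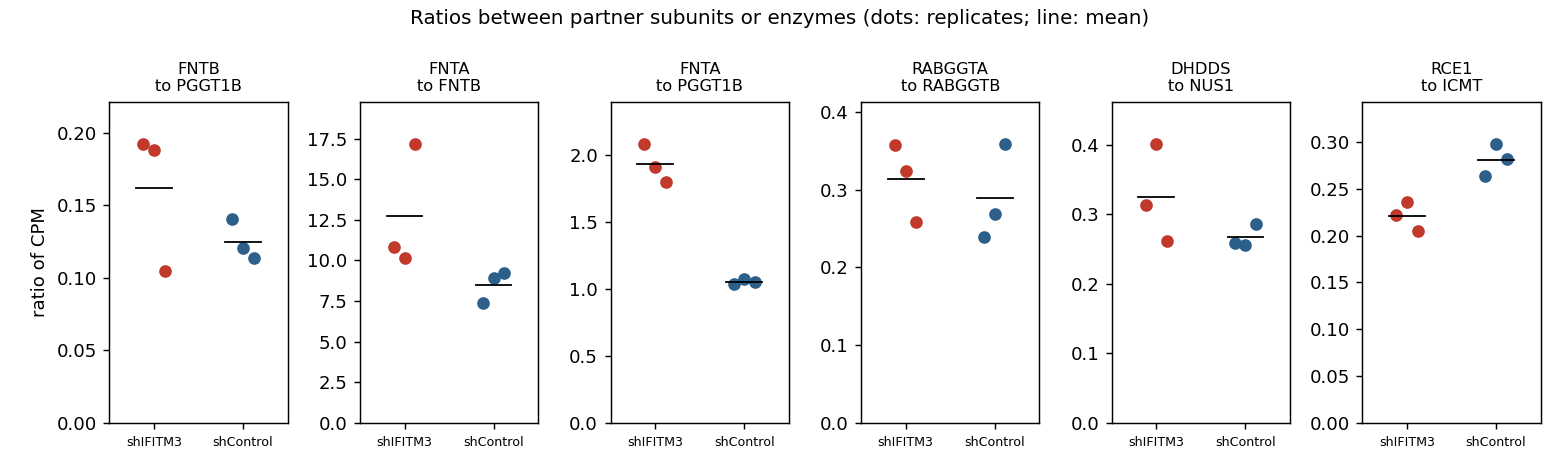
Ratio of CPM (vertical axes from 0) between partner subunits or consecutive enzymes in the 3 shIFITM3 samples (left, red) and the 3 shControl samples (right, blue), with the mean as a line. The FNTA to PGGT1B ratio lies between 1.80 and 2.09 in shIFITM3 and between 1.04 and 1.07 in shControl, and the RCE1 to ICMT ratio is lower in all 3 shIFITM3 samples.

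Transcripts of both subunits of the RAB prenyltransferase rose. RABGGTB (chromosome 1, 75786194 to 75795090), the catalytic beta subunit, was at 57.7, 61.4 and 65.7 CPM in shIFITM3 replicates 1, 2 and 3, against 53.8, 51.0 and 51.5 CPM in shControl replicates 1, 2 and 3. Every shIFITM3 sample was above every shControl sample, and the log2 fold change was 0.24 (SE 0.0533, edgeR adjusted p = 0.00041). RABGGTA (chromosome 14, 24265538 to 24271627, minus strand), the alpha subunit, was at 20.6, 19.9 and 17.0 CPM in shIFITM3 replicates 1, 2 and 3, against 12.9, 13.7 and 18.5 CPM in shControl replicates 1, 2 and 3. Here shControl replicate 3 lay inside the shIFITM3 range and far above the other two shControl samples. The log2 fold change was 0.35 (SE 0.112, edgeR adjusted p = 0.00952). It missed the threshold without shIFITM3 replicate 1 (0.30, edgeR adjusted p = 0.0538), shControl replicate 1 (0.28, 0.0507) or shControl replicate 2 (0.28, 0.0658). The ratio of RABGGTA to RABGGTB overlapped between groups (log2 difference 0.13, exact permutation p = 0.8, adjusted 0.8). Leaving out single samples moved this difference between -0.00045 (without shControl replicate 1) and 0.29 (without shControl replicate 3), so no direction is read from it.

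Of the partners of this enzyme, PTAR1, which pairs with RABGGTB in geranylgeranyl transferase III, rose by a log2 fold change of 0.19 (78.7 ± 3.39 CPM in shIFITM3 and 69.2 ± 2.25 CPM in shControl, SD, n = 3 each, edgeR adjusted p = 0.00147). The Rab escort proteins present RAB proteins to RABGGTA and RABGGTB. CHML, the gene of Rab escort protein 2, fell, with 174 ± 1.39 CPM in shIFITM3 and 199.7 ± 9.54 CPM in shControl (log2 fold change -0.19, edgeR adjusted p = 0.000122). CHM, the gene of Rab escort protein 1, was at 38.2 ± 2.25 CPM in shIFITM3 and 39.7 ± 1.84 CPM in shControl (-0.05, edgeR adjusted p = 0.511).

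Transcripts of the enzymes that finish a prenylated CAAX protein differed from each other. RCE1 (chromosome 11, 66843441 to 66846552), the CAAX protease, was at 29.4, 32.6 and 27.4 CPM in shIFITM3 replicates 1, 2 and 3, against 36.1, 40.8 and 38.0 CPM in shControl replicates 1, 2 and 3. All 3 shIFITM3 samples were below all 3 shControl samples, and the log2 fold change was -0.37 (SE 0.0694, edgeR adjusted p = 7.46e-05). In GENCODE release 29, 12.7% of its exon bases also belong to C11orf80 on the same strand. ICMT (chromosome 1, 6221193 to 6235964, minus strand), the methyltransferase that acts next, was at 133, 138.5 and 134 CPM in shIFITM3 replicates 1, 2 and 3, against 137, 137 and 135 CPM in shControl replicates 1, 2 and 3. These ranges overlapped, and the log2 fold change was -0.01 with an SE of 0.0379 (edgeR adjusted p = 0.802). The log2 ratio of RCE1 to ICMT was lower in shIFITM3, with a difference of -0.35 and without overlap between the groups (exact permutation p = 0.1, adjusted 0.2).

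The dolichol branch rose in DHDDS (chromosome 1, 26432321 to 26471306), the catalytic subunit of the cis-prenyltransferase. It was at 24.6, 30.5 and 22.4 CPM in shIFITM3 replicates 1, 2 and 3, against 20.1, 18.9 and 21.6 CPM in shControl replicates 1, 2 and 3. The groups did not overlap, although shIFITM3 replicate 3 lay just above the highest shControl sample. The log2 fold change was 0.36 (SE 0.0931, edgeR adjusted p = 0.00191), and 0.22 without shIFITM3 replicate 2 (edgeR adjusted p = 0.0356). NUS1 (chromosome 6, 117675469 to 117710727), the partner subunit also called the Nogo-B receptor, was at 78.6, 75.9 and 85.8 CPM in shIFITM3 replicates 1, 2 and 3, against 77.5, 74.1 and 75.2 CPM in shControl replicates 1, 2 and 3. The ranges overlapped and the difference missed the threshold (log2 fold change 0.09, SE 0.0486, edgeR adjusted p = 0.14). It passed after a correction for GC content and length (0.13, edgeR adjusted p = 0.0114) and without shIFITM3 replicate 2 (0.12, 0.0439). The DHDDS to NUS1 ratio overlapped between groups (log2 difference 0.26, exact permutation p = 0.2, adjusted 0.3), and the difference was 0.10 without shIFITM3 replicate 2 and 0.41 without shIFITM3 replicate 3.

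**Figure D3:**
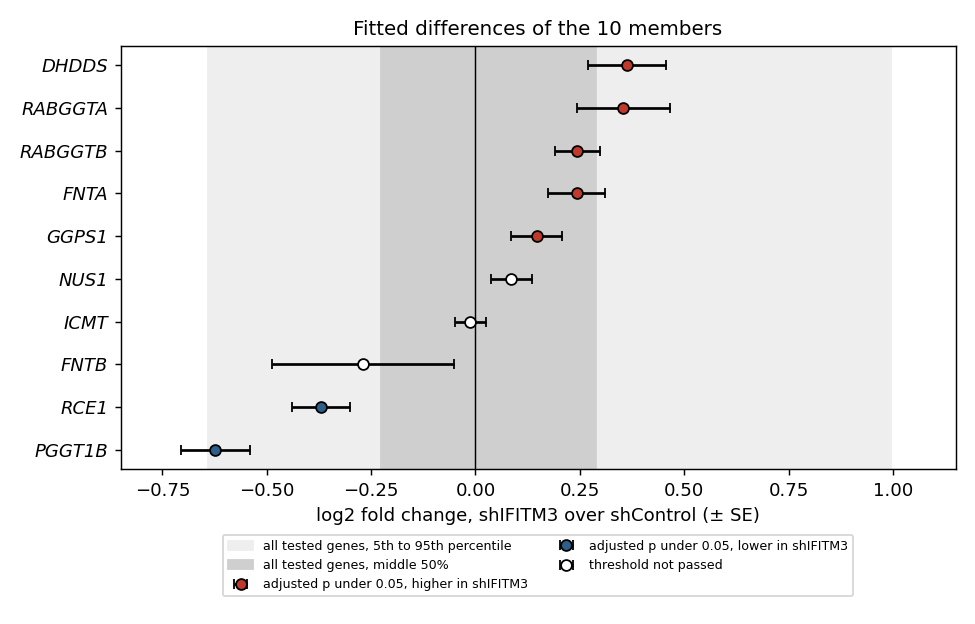
Fitted log2 fold changes of the members, shIFITM3 over shControl, with their SE, beside the middle 50% and the 5th to 95th percentiles of all tested genes (grey bands). PGGT1B at -0.62 lies near the lower edge of the wider band, and DHDDS at 0.36 is the highest member.

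Levels were compared between genes after division by the exon length of each gene's coding transcripts in GENCODE release 29, as CPM per kilobase. The order of the mean levels was the same in both groups. In shIFITM3 it ran from RABGGTB (39.7), ICMT (28.3), RCE1 (19.6), GGPS1 (18.3), NUS1 (17.1) and FNTA (11.8) to RABGGTA (7.69), DHDDS (6.44), PGGT1B (1.59) and FNTB (0.85 CPM per kilobase). In shControl the level was 33.6 for RABGGTB, 28.5 for ICMT, 25.2 for RCE1, 16.6 for GGPS1, 16.2 for NUS1, 9.96 for FNTA, 6.04 for RABGGTA, 5.03 for DHDDS, 2.45 for PGGT1B and 1.03 CPM per kilobase for FNTB. GGPS1 and NUS1, and RABGGTA and DHDDS, overlapped as neighbours in both groups, and RCE1 and GGPS1 overlapped in shIFITM3. The 2 beta subunits of the CAAX prenyltransferases were thus the lowest of the 10 on this scale, with PGGT1B divided by a long annotated exon length of 9.545 kilobases and FNTB possibly undercounted. Reads in shared exons may also have been lost for GGPS1 (37.3% of exon bases shared with TBCE) and RCE1 (12.7% with C11orf80), which could alter their places. The order rests on this choice of length. Over all annotated exons RABGGTB has 5913 bases and FNTA 9551 bases, against the 1.552 and 2.475 kilobases used here. An order on those longer lengths was not tested.

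**Figure D4:**
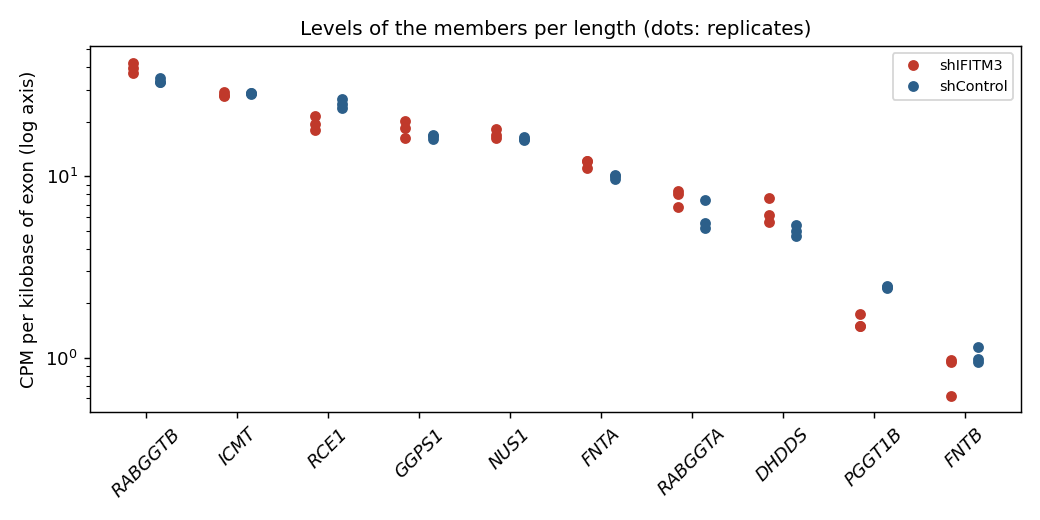
CPM per kilobase of exon (log axis) of the 10 members, ordered by their mean in shControl, with 1 dot per sample (shIFITM3 left in red, shControl right in blue). With the exon lengths of coding transcripts, RABGGTB is highest and FNTB lowest in both groups.

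Genes around these enzymes were counted by lists of textbook members, with 27.7% of all tested genes higher and 28.4% lower as the background. Of 10 genes that escort, release or further process prenylated proteins, 4 rose and 3 fell, with a median log2 fold change of -0.01. The rises included ARHGDIA (0.36, with 590 ± 33.8 CPM in shIFITM3 and 459 ± 19.7 CPM in shControl, SD, n = 3 each) and ARHGDIB (0.33), which extract prenylated small GTPases from membranes. The edgeR adjusted p was at most 1.24e-08 for both.

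Among 19 genes of farnesylated proteins 4 rose and 8 fell, with a median of -0.02. The B-type lamin genes LMNB1 (-0.65, with 163 ± 7.32 CPM in shIFITM3 and 255 ± 3.72 CPM in shControl) and LMNB2 (-0.43) and the co-chaperone gene DNAJA1 (-0.56) had the smallest p. Among 14 genes of proteins modified by geranylgeranyl transferase I, 3 rose and 3 fell, with a median of 0.01. The 3 rises were GNG12 (0.29), a G protein gamma subunit, and the small GTPase genes RRAS (0.72, with 22.4 ± 3.35 CPM in shIFITM3 and 13.5 ± 0.981 CPM in shControl) and RAP1B (0.31). After the correction for GC content and length 5 of these 14 rose.

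Genes that act downstream of DHDDS and NUS1 changed in both directions. Of 9 genes that reduce, phosphorylate or load dolichol, 1 rose and 3 fell, with a median of 0.03. The rise was that of DPM3 (0.90, with 8.58 ± 0.395 CPM in shIFITM3 and 4.50 ± 0.785 CPM in shControl), a subunit of dolichol-phosphate mannose synthase. DOLPP1 (-0.51), which recycles dolichol diphosphate, fell. SRD5A3, the polyprenol reductase gene that follows DHDDS and NUS1, was at 7.24 ± 0.748 CPM in shIFITM3 and 7.04 ± 0.635 CPM in shControl (0.03, edgeR adjusted p = 0.88). Of 14 genes that assemble the sugar chain on dolichol, 2 rose and 5 fell, with a median of -0.09, and ALG14 (-0.77), ALG10 (-0.57) and ALG8 (-0.29) had the smallest p. ALG10 has a close paralog, ALG10B, which rose (0.33, edgeR adjusted p = 0.00421), so the value of ALG10 is uncertain.

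Oligosaccharyltransferase moves the finished glycan to protein. Of 12 genes of its subunits, 7 fell and the other 5 did not pass, with a median of -0.14. The number that fell ranged from 5 to 9 when each sample was left out. RPN2 (-0.32, with 284 ± 8.30 CPM in shIFITM3 and 354 ± 5.75 CPM in shControl) and the catalytic subunit genes STT3B (-0.24) and STT3A (-0.22) had the smallest p, with edgeR adjusted p at most 2.77e-05. Of 5 other enzymes that make or use prenyl chains, 3 fell and 2 did not pass, with a median of -0.32. COQ2 (-0.67, with 16.4 ± 1.55 CPM in shIFITM3 and 26.2 ± 1.90 CPM in shControl) and PDSS1 (-0.64) act in the synthesis of ubiquinone, and COX10 (-0.32) in that of haem A.

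**Figure D5:**
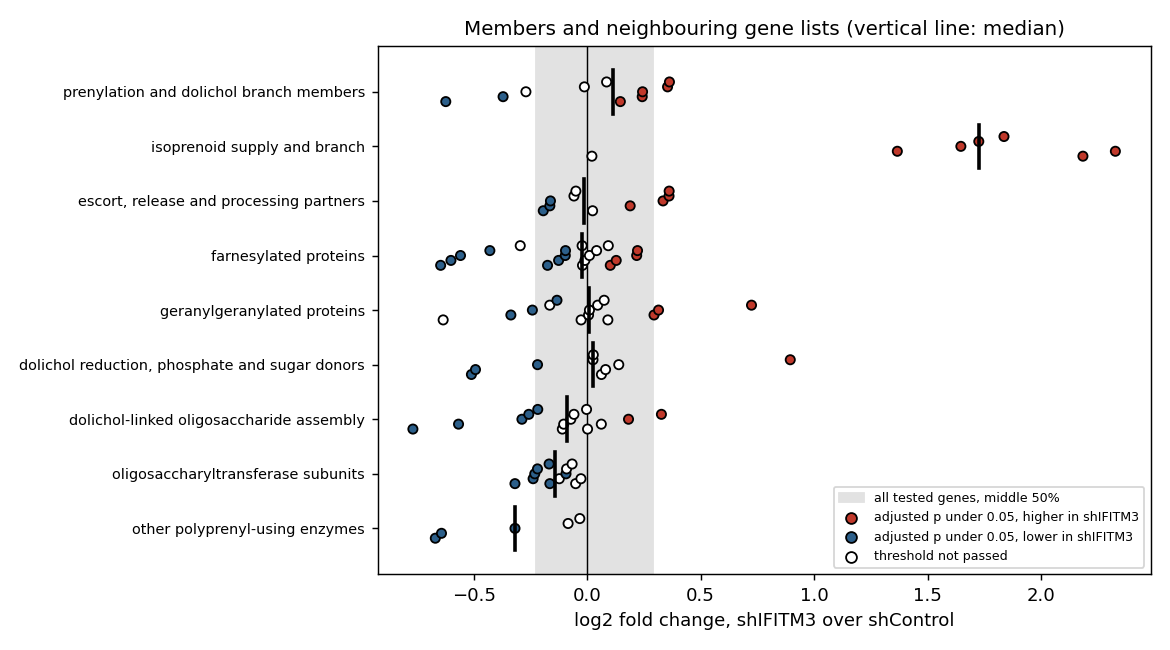
Log2 fold changes, shIFITM3 over shControl, of each tested gene in the 10 members and in 8 lists of neighbouring genes, with the list median as a vertical line and the middle 50% of all tested genes as a grey band. The supply list has its median at 1.73, while the medians of the members and of the other lists lie between -0.32 and 0.12.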

How the data were processed

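RNA of PC-9 cells with a stable shRNA against IFITM3 (3 samples) or a control construct (3 samples) was sequenced from stranded mRNA libraries, per the labels' protocols. The deposited table holds raw, unnormalized read counts, 1 row per gene symbol. Per the submitters' processing notes, hg38 was the build, and featureCounts (Subread 2.0.6), HISAT2 2.2.1, fastp 0.23.4, SAMtools 1.20 and FastQC 0.12.1 were used. Which annotation and which strand option featureCounts was given is not stated in these sources, so overlapping genes may share or lose reads.

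The deposited counts were fitted with edgeR 4.0.16 in R 4.3.3: filterByExpr by group (14018 genes kept), TMM scaling, glmQLFit on group and two-sided glmQLFTest, with Benjamini-Hochberg adjustment over all tested genes and a threshold of 0.05. Log2 fold changes are shIFITM3 over shControl. The SE was obtained from the log2 fold change and the quasi-likelihood F (its absolute value over the root of F). The fit was tested on counts simulated from a negative binomial model with the dispersions that edgeR estimated. Such a test cannot show whether that model suits these data. Ratios between partners were compared by an exact permutation test. Exon lengths and overlaps come from GENCODE release 29 on the same assembly, and gene coordinates and upstream sequences from RefSeq (GRCh38.p14).

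A count of 0 allows up to 3 counts in a library, which is 0.141 CPM in the shallowest library and 0.0388 CPM in the deepest. These limits reflect counting error alone. The genes named are the 10 members, IFITM3, FDPS, FDFT1, PTAR1, CHM, CHML, SRD5A3, and the 3 genes with the smallest p in each list. Values of ALG10B, as the paralog of ALG10, and of the cell type markers are given besides. Some genes that this rule takes are not reported here. The members and the lists were chosen with earlier results of these data known. Alternatives were other scalings (RLE, upper quartile, total counts), no filter, a filter of 50 counts in 3 samples, DESeq2 1.42.0, limma-voom (limma 3.58.1), the replicate number as a block, a thinned deepest library, a GC and length correction (13270 tested genes matched, 94.7%) and leaving out each sample.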

Additional observations from a re-analysis of the deposited data

How the results depend on the processing

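Of 1000 values recomputed over 66 results and their alternatives, 979 kept their direction and their side of the threshold or, for counts, stayed within 1.5 times and, for ratios, moved by less than 1 SD between replicates. That SD is wide for several ratios. The 66 results also include the genes named for the smallest p in their lists, whose calls had little room to change. The total is therefore not a measure of how stable the members were. Leaving out each sample moved the log2 difference from -0.00045 to 0.29 for RABGGTA to RABGGTB, from 0.10 to 0.41 for DHDDS to NUS1, from 0.17 to 0.61 for FNTB to PGGT1B and from 0.31 to 0.69 for FNTA to FNTB. PGGT1B, FNTA, RABGGTB, RCE1 and DHDDS passed under all 16 alternatives tried, and FNTB and ICMT under none of them. The exceptions among the members were GGPS1, which passed under 9 of the 16, RABGGTA under 13 and NUS1 under 2. GGPS1 missed the threshold with upper-quartile scaling (log2 fold change 0.13), DESeq2 (0.14) and the thinned deepest library (0.14), and ranged from 0.074 to 0.22 when each sample was left out. RABGGTA ranged from 0.28 to 0.52 when each sample was left out. NUS1 passed after the GC and length correction (0.13) and ranged from 0.032 to 0.12 when each sample was left out. The count of members that rose ranged from 3 to 5 over these omissions, with 3 without shControl replicate 2, while 2 fell each time. The GC and length correction gave 5 rises among the geranylgeranylated proteins and 2 in the list of dolichol reduction, phosphate and sugar donors. SRD5A3, close to no change, turned negative in limma-voom (-0.00223) and with the thinned library (-0.026), and ranged from -0.063 to 0.081 when each sample was left out. The causes of these shifts were not tested. The main fit did not pair samples that share a replicate number. Their deviations from the group means correlated at 0.0157, 0.033 and 0.00634 for replicates 1, 2 and 3. shIFITM3 replicates 1 and 2 correlated best with their own number, and replicate 3 with shControl replicate 1 (0.0252). Correlations this small cannot show whether the samples were paired. With the replicate number as a block 7870 genes passed, as many as without it, and the members' calls were as reported (GGPS1 0.15, PGGT1B -0.63). FNTB, with a log2 fold change between -0.38 and -0.08 when each sample was left out and 42 to 216 counts a sample, is the member that depth limits most.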
